A study of Mus musculus with 8 samples.

Results

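The 9 genes described here, Axin2, Nkd1, Notum, Rnf43, Znrf3, Apcdd1, Sp5, Cdx1 and Lgr5, are feedback regulators and targets of the Wnt/β-catenin pathway. They were picked by name, from what is known of the pathway, out of 38991 Ensembl identifiers with values in all cultures. Earlier results of these data were known when they were picked, so that counts of these genes called are descriptive. Their RNA was measured by RNA sequencing in 8 cultures of RGd2 mouse ESCs, a 129 strain line in which Rex1 (Zfp42) drives a short-lived GFP reporter. All cultures came from cells derived and grown for 6 passages in 2i and were then kept for 5 more, to passage 11, on gelatin in N2B27 medium with one of 4 combinations of signals. There were 2 cultures in each of 2i+LIF (the cytokine LIF, 3 μM of the GSK3 inhibitor CH and 1 μM of the MEK inhibitor PD), 2i (CH and PD), CH+LIF and LIF+PD, so that each of the last 3 media lacked a single component of 2i+LIF. The 2i cultures thus stayed in the medium in which the cells were first grown, and LIF was added in the others. Below, removal or withdrawal of a signal means its absence in comparison with 2i+LIF. No medium lacked more than 1 component, and all cultures derive from 1 reporter line. Nothing states whether the 2 cultures of a condition were grown apart, so that the spread between them may be technical, and the p-values measure that spread alone.

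In the Wnt/β-catenin pathway, a destruction complex built on Axin and Apc holds β-catenin so that the kinase GSK3 can mark it for breakdown. When Wnt ligands bind Frizzled and Lrp receptors, or when GSK3 is inhibited by CH, β-catenin accumulates, enters the nucleus and acts with Tcf/Lef proteins on target genes. Several of those targets restrain the pathway in turn. In mouse ESCs, inhibition of GSK3 supports self-renewal, mainly by relieving repression by Tcf7l1 (Tcf3). Because CH acts inside the cell, at GSK3, feedback regulators that act on ligands and receptors lie upstream of the step that it inhibits.

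Promoter sequence was at hand for 4 of the 9 genes (Axin2, Nkd1, Rnf43 and Sp5), as the 250 bases upstream of each RefSeq transcript start in the GRCm38.p6 build. Those of Sp5 and Axin2 are shown because these genes were among the most reduced without CH. They were searched on both strands for CTTTGA, the core of the Tcf/Lef recognition sequence, and for CTTTGAT, which contains it. Capitals mark the matches.
Sp5, chr2:70474673-70474922, plus strand: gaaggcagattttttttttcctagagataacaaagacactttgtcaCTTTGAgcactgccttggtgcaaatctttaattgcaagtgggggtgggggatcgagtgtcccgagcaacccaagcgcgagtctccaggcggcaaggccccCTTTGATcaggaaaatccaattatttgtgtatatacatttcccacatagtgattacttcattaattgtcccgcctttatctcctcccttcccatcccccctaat
Axin2, chr11:108920099-108920348, plus strand: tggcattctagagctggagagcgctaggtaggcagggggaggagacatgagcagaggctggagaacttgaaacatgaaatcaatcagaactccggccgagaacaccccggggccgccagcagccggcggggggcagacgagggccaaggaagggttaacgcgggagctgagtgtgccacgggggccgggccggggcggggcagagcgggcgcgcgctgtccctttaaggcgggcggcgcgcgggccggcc
The Sp5 window held 2 matches to CTTTGA, 204 and 104 bases before the start, the second of which was also the single match to CTTTGAT. The Axin2 window held 0 matches to either, as did those of Nkd1 and Rnf43. Of 32851 windows of the same length, 13.8% held CTTTGA and 3.21% CTTTGAT. The Sp5 window had a GC content of 46.0% and the Axin2 window of 69.2%. These letters are matches in a short window and were not measured as binding sites.

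Values are FPKM, which corrects read numbers for transcript length and library size, and can therefore be set side by side between genes. The number of reads is unknown. From weakly expressed genes, the depth relative to the first 2i+LIF culture was estimated to lie between 0.499 for the shallowest (the first of 2i) and 1.18, and the summed FPKM ranged from 715575 to 875458. All 7 markers of naive ESCs were far above 1 FPKM in every culture, but their levels differed between media. Klf4 was at 203 and 196 FPKM in 2i+LIF, 47.7 and 50.6 in 2i, 175 and 219 in CH+LIF, and 117 and 103 in LIF+PD. Nanog was lowest in CH+LIF, at 305 and 283 against 549 and 476 in 2i+LIF. Zfp42 went the other way in LIF+PD, at 253 and 260 against 217 and 193 in 2i+LIF. In bulk RNA, fewer cells that express a gene and less RNA per cell cannot be told apart. The summed FPKM of 7 primitive streak and mesoderm markers was 12.3 to 15.1 in 2i+LIF, 13.1 to 23.7 in 2i, 28.6 to 47.7 in CH+LIF and 8.71 to 8.77 in LIF+PD, highest in CH+LIF and lowest in LIF+PD as was Cdx1. T carried most of the rise and is itself a Wnt target. Eomes rose with it, from 1.63 and 1.42 FPKM in 2i+LIF to 5.58 and 2.85 in 2i and 9.98 and 8.85 in CH+LIF. In LIF+PD Eomes was at 1.22 and 1.76. Mesp1 did not exceed 0.259 FPKM. Gsc of the same list went the other way, at 7.71 and 6.26 FPKM in 2i+LIF, 1.53 and 0.175 in 2i, 0.654 and 0.499 in CH+LIF, and 6.77 and 6.10 in LIF+PD. For 5 trophoblast markers the sums were 23.3 to 28.3, 33.5 to 37.8, 6.18 to 6.69 and 17.0 to 21.4 in the same order, with Elf5 and Hand1 at 0 in both CH+LIF cultures. These sums combine opposite movements. Gata3 rose from 2.10 and 0.462 FPKM in 2i+LIF to 14.4 and 18.4 in LIF+PD. Tfap2a fell from 15.6 and 14.8 to 1.87 and 2.30, and Cdx2, also a Wnt target, from 10.2 and 7.91 to 0.0433 and 0.096. For 4 neural markers the sums were 1.26 to 1.32, 8.44 to 9.99, 2.66 to 3.92 and 23.6 to 24.1 in the same order of media, with Olig2 at 0 in 2i+LIF and 2i. The 5 primitive endoderm markers summed to no more than 3.04 anywhere. The 5 fibroblast markers summed to 4.19 or less except in 1 CH+LIF culture (17.1), and Col3a1 was at 0 throughout. That sum was mostly Postn, at 14.1 FPKM in the second CH+LIF culture and 0 in the first. Col1a1 was at 0.0791 in the second. The part of these cells in the results was not tested.

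**Figure D1:**
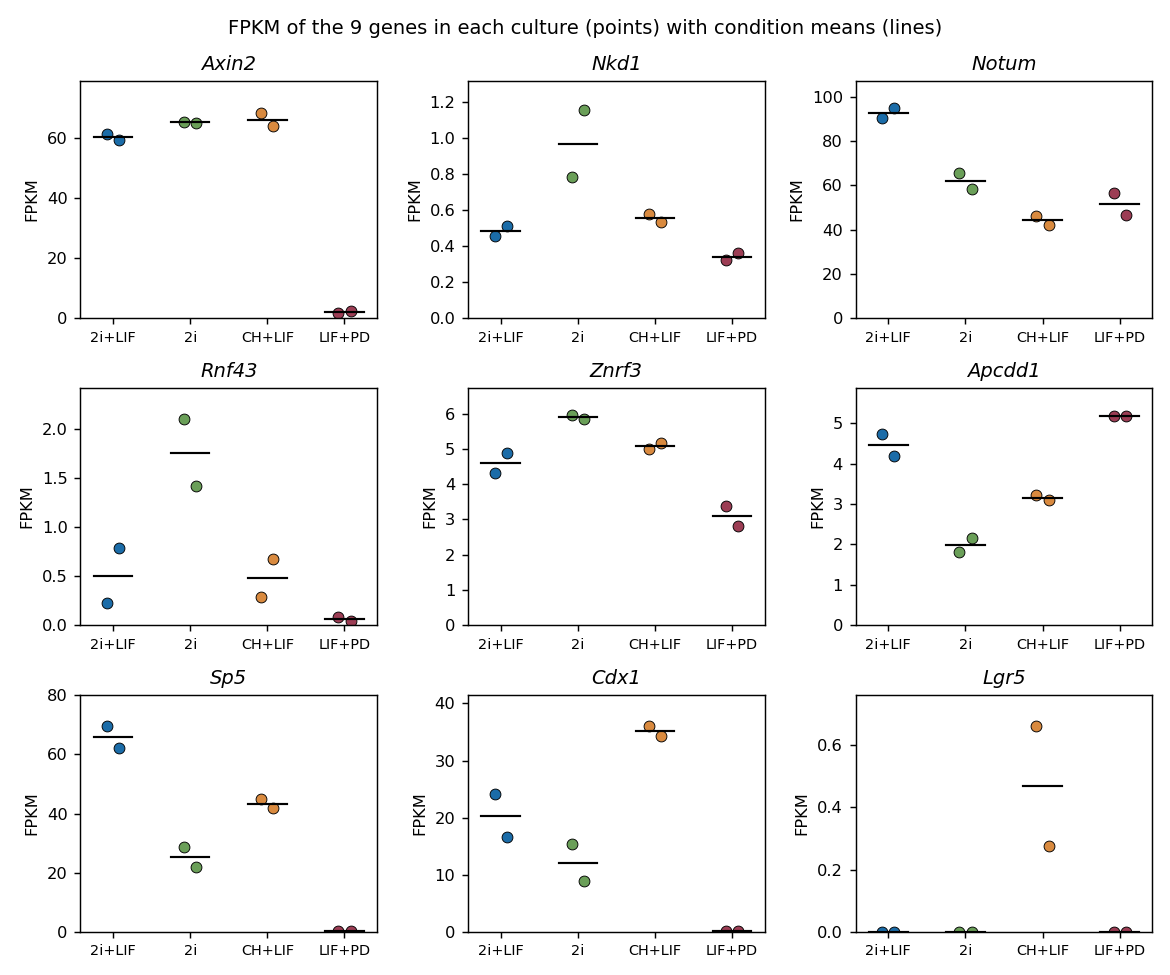
FPKM (linear vertical axes from 0, a separate scale for each gene) of the 9 genes in each of the 8 cultures. Points are cultures and lines are means of 2 cultures. Axin2, Sp5 and Cdx1 lie near 0 in LIF+PD alone, Notum is highest in 2i+LIF, Apcdd1 is highest in LIF+PD, and Lgr5 has values above 0 in CH+LIF alone.

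A gene was tested if its FPKM was at least 1 in at least 2 cultures. Of the 9 genes 7 passed, Nkd1 and Lgr5 did not, and Rnf43 passed only through its 2i cultures, so that its comparisons with 2i are partly set by the filter. Tests were made on log2(FPKM + 1) with limma in a single fit over 12927 genes and all 8 cultures, and p-values were adjusted over all of them by the Benjamini-Hochberg method, and a gene was called when its adjusted p was under 0.05. The added 1 makes fold changes of weakly expressed genes look smaller than the ratio of their FPKM.

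The first comparison asked what the removal of CH did, by setting LIF+PD against 2i+LIF. Of the 7 genes tested, 5 were lower without CH (Sp5, Axin2, Cdx1, Notum and Znrf3), 0 were higher, and Rnf43 and Apcdd1 were not called. Over all genes tested, 10.4% were lower and 14.8% higher. The median log2 fold change of the 7 was -0.84, against 0.03 over all genes. Their changes covered a wide range, from the near loss of 3 transcripts to none that could be detected.

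Axin2 (chr11:108920349-108950783, plus strand, mm10) encodes a scaffold of the destruction complex and is a widely used readout of β-catenin activity. It measured 61.3 and 59.4 FPKM in 2i+LIF, 65.4 and 64.9 in 2i, 68.4 and 63.8 in CH+LIF, and 1.85 and 2.47 in LIF+PD. The 6 cultures with CH thus lay within a narrow band, and both cultures without CH lay far below it. The mean FPKM in LIF+PD was 28.0-fold lower than in 2i+LIF, between 24.1- and 33.2-fold over pairs of cultures. On the log2 scale the difference was -4.29 (SE 0.11, adjusted p = 6.5e-06, limma), and only 10 genes of 12927 had a larger decrease.

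Sp5 (chr2:70474923-70477729, plus strand), a zinc finger transcription factor of the Sp family induced by Wnt, measured 69.4 and 62.3 FPKM in 2i+LIF, 28.6 and 21.9 in 2i, 45.0 and 41.8 in CH+LIF, and 0.188 and 0.417 in LIF+PD. Its values did not overlap between any of the 4 groups, whereas those of Axin2 did between 2i and CH+LIF. The call between CH+LIF and 2i+LIF was not firm, as given below. Here and for the genes below, the share of all genes with groups so apart was not counted. The mean FPKM was 218-fold lower in LIF+PD than in 2i+LIF (149- to 370-fold over pairs of cultures), a ratio with a denominator below 1 FPKM. The log2 difference was -5.69 (SE 0.15, adjusted p = 6.5e-06, limma), and 6 genes had a larger decrease.

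Cdx1 (chr18:61018862-61036199, minus strand), a caudal-type homeobox factor of the posterior embryo and intestine, measured 24.1 and 16.5 FPKM in 2i+LIF, 15.4 and 8.83 in 2i, 36.0 and 34.2 in CH+LIF, and 0.115 and 0.128 in LIF+PD. It was highest in CH+LIF, and the replicates of 2i+LIF and of 2i differed by up to 1.74-fold. Both deposited lower bounds in LIF+PD were 0. The mean was 167-fold lower in LIF+PD than in 2i+LIF (129- to 209-fold over pairs of cultures), and the log2 difference was -4.23 (SE 0.26, adjusted p = 0.00014, limma), with 13 genes showing a larger decrease.

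Notum (chr11:120653788-120661175, minus strand) encodes a secreted carboxylesterase that inactivates Wnt ligands by removing their lipid. It had the highest mean FPKM of the 9 genes in 2i+LIF, at 90.2 and 94.7, and measured 65.5 and 58.3 in 2i, 46.3 and 42.1 in CH+LIF, and 56.5 and 46.5 in LIF+PD. All 6 cultures that lacked a component lay below both 2i+LIF cultures. The fall without CH was 1.79-fold (log2 difference -0.84, SE 0.12, adjusted p = 0.00286, limma), and the gene remained at 51.5 ± 7.08 FPKM (SD, n = 2) there, when Axin2 was at 2.16 ± 0.435 (SD, n = 2). For 6 of the 8 Notum values the deposited FPKM lay above its own deposited upper bound, and so did 2 of the Sp5 values. The antisense gene Notumos, listed under an older name, overlaps the 5′ part of Notum and was itself highest in 2i+LIF, at 9.18 and 9.60 FPKM, and lowest in CH+LIF, at 4.58 and 4.06. Whether the FPKM values used strand is not stated, so that reads of the pair may not have been told apart.

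Znrf3 (chr11:5276324-5444847, minus strand) and Rnf43 (chr11:87662722-87735539, plus strand) encode related transmembrane E3 ubiquitin ligases that remove Frizzled receptors from the cell surface. Znrf3 measured 4.33 and 4.87 FPKM in 2i+LIF, 5.97 and 5.86 in 2i, 4.99 and 5.17 in CH+LIF, and 3.38 and 2.82 in LIF+PD. The LIF+PD cultures were the lowest without overlap, 1.48-fold below 2i+LIF on average. The log2 difference of -0.45 (SE 0.13) had an adjusted p of 0.0421 by limma, and with any single culture left out it no longer passed (adjusted p from 0.0552 without replicate 2 of 2i to 0.187 without replicate 2 of LIF+PD).

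Rnf43 measured 0.219 and 0.788 FPKM in 2i+LIF, 2.09 and 1.41 in 2i, 0.289 and 0.672 in CH+LIF, and 0.0769 and 0.0405 in LIF+PD. The 2i cultures were highest and the LIF+PD cultures lowest, each without overlap with any other group, at levels where the deposited bounds were wide (0 to 1.03 for the first LIF+PD culture). In the comparison without CH it was not called (log2 difference -0.48, 95% confidence interval -1.08 to 0.12, adjusted p = 0.213, limma).

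Apcdd1 (chr18:62922327-62953195, plus strand) encodes a membrane-bound inhibitor that binds Wnt ligands and Lrp5. It measured 4.74 and 4.20 FPKM in 2i+LIF, 1.80 and 2.16 in 2i, 3.22 and 3.09 in CH+LIF, and 5.18 in both LIF+PD cultures. The order of its means was the reverse of that of Znrf3, with the highest values where CH was absent. The log2 difference of LIF+PD from 2i+LIF was 0.18 (95% confidence interval -0.14 to 0.49, adjusted p = 0.367, limma), which was not called.

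Nkd1, which binds Dishevelled and dampens the Wnt signal, was near the lower end of what was measured, at 0.456 and 0.513 FPKM in 2i+LIF, 0.781 and 1.15 in 2i, 0.576 and 0.532 in CH+LIF, and 0.324 and 0.359 in LIF+PD. The values of the groups did not overlap, but their deposited bounds did. These were 0.390 to 1.18 for the first 2i culture, 0.331 to 0.734 for the second of CH+LIF and 0.168 to 0.554 for the second of LIF+PD. The order of the means (2i, CH+LIF, 2i+LIF, LIF+PD) was that of Znrf3, at levels too low for the order to be firm. Lgr5 (chr10:115450311-115587780, minus strand), an R-spondin receptor and stem cell marker of the intestinal crypt, was listed at 0 in the 6 cultures of 2i+LIF, 2i and LIF+PD, and at 0.660 and 0.275 FPKM in CH+LIF, with deposited lower bounds of 0. A listed 0 need not be an absent transcript, since 3 genes with at least 20 FPKM in 6 cultures were also listed at 0 in another.

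**Figure D2:**
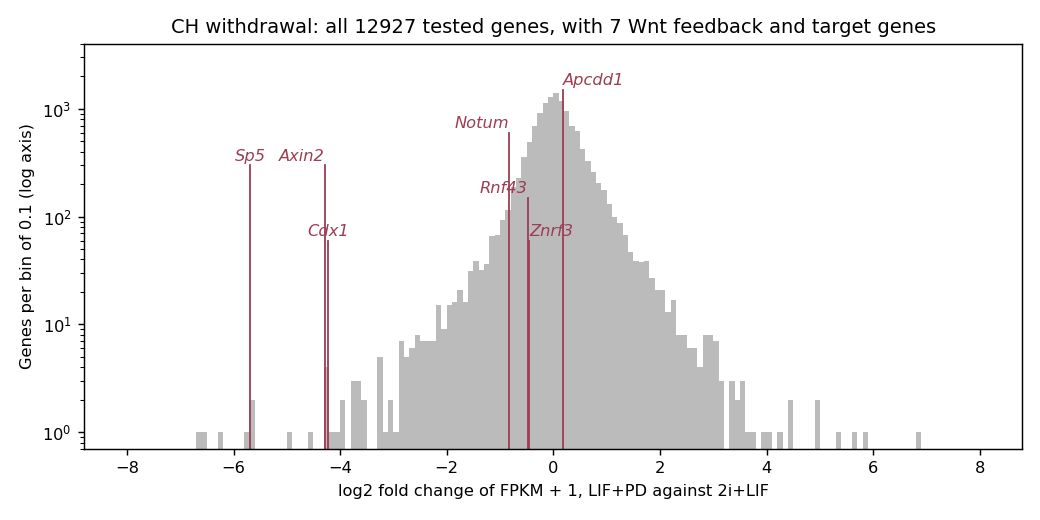
Histogram of the log2 fold change of FPKM + 1 between LIF+PD and 2i+LIF for all 12927 genes tested, in bins of 0.1 with a logarithmic vertical axis. Vertical lines of arbitrary height mark 7 genes: Sp5 (-5.69), Axin2 (-4.29) and Cdx1 (-4.23) lie in the far left tail, and Notum, Rnf43, Znrf3 and Apcdd1 nearer the centre. Of the 12927 genes, 601 had a larger decrease than Notum.

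The second comparison set 2i against 2i+LIF, media that differ in LIF and both hold CH and PD. Since the cells came from 2i, LIF had been added in 2i+LIF and not taken away in 2i. Of the 7 genes, 3 were lower in 2i (Sp5, Apcdd1 and Notum) and 0 higher, where 8.86% of all genes tested were lower and 9.77% higher. The median log2 fold change of the 7 was -0.57, against 0.04 over all genes. Sp5 was 2.61-fold lower (log2 difference -1.36, SE 0.15, adjusted p = 0.00163, limma) and Apcdd1 2.25-fold lower (-0.87, SE 0.13, adjusted p = 0.00523). Notum was 1.49-fold lower (-0.57, SE 0.12, adjusted p = 0.0158), a call that was lost without replicate 2 of 2i (adjusted p = 0.0728) or without replicate 1 (0.063) or 2 (0.0883) of 2i+LIF.

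Axin2 differed between these media by 0.11 on the log2 scale (95% confidence interval -0.15 to 0.37, adjusted p = 0.529, limma). Znrf3, Rnf43 and Nkd1 had their highest values in 2i. Neither tested gene of these was called, with log2 differences of 0.31 for Znrf3 (adjusted p = 0.147) and 0.89 for Rnf43 (SE 0.26, adjusted p = 0.0524). Cdx1 had a log2 difference of -0.72 (SE 0.26, adjusted p = 0.0955, limma), which passed without replicate 1 of 2i (adjusted p = 0.0269), the culture with the lowest estimated depth.

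The third comparison set CH+LIF against 2i+LIF, to ask what PD removal did. Of the 7 genes 2 were lower (Notum and Sp5) and 0 higher, where 13.3% of all genes were lower and 12.2% higher. The median of the 7 was -0.01, against 0.01 over all genes. Notum was 2.09-fold lower (log2 difference -1.05, SE 0.12, adjusted p = 0.00156, limma), its largest fall among the 3 withdrawals. Sp5 was 1.52-fold lower (-0.59, SE 0.15, adjusted p = 0.0302), and this call was lost when 1 of the 4 cultures compared was left out (adjusted p = 0.146 and 0.0793 without replicate 1 and 2 of 2i+LIF, and 0.0956 and 0.122 without replicate 1 and 2 of CH+LIF). It was also lost when each culture was rescaled to the same sum (0.0718), without the filter on low values (0.0625) and with a pseudocount of 0.1 (0.143).

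Cdx1 had the opposite sign here to that of Sp5, at 1.73-fold of its 2i+LIF mean. With a log2 difference of 0.78 (SE 0.26) it was not called in the main fit (adjusted p = 0.0646, limma), and was called in 6 of 18 alternatives, among them rescaling (0.99, adjusted p = 0.0159) and leaving out replicate 1 (0.0247) or 2 (0.0241) of 2i. Axin2 (0.13, 95% confidence interval -0.13 to 0.39) and Znrf3 (0.12, 95% confidence interval -0.18 to 0.42) were not called. Apcdd1 had a log2 difference of -0.39 (adjusted p = 0.0698) and Rnf43 of -0.01 (adjusted p = 0.984). The 3 withdrawals share the 2i+LIF cultures, so that they are not independent of each other, and only Sp5 and Notum were called in all 3.

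Rescaling each culture to the same sum moved the median of all genes in the fit of CH removal from 0.03 to 0.16, and in that of PD removal from 0.01 to 0.19. The split of calls over all genes moved with it, from 1913 higher and 1350 lower to 2601 and 878 without CH, and from 1573 and 1713 to 2903 and 1016 without PD. The directions of the called genes among the 7 were the same with rescaling in these comparisons, and relative to the shifted medians as well.

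**Figure D3:**
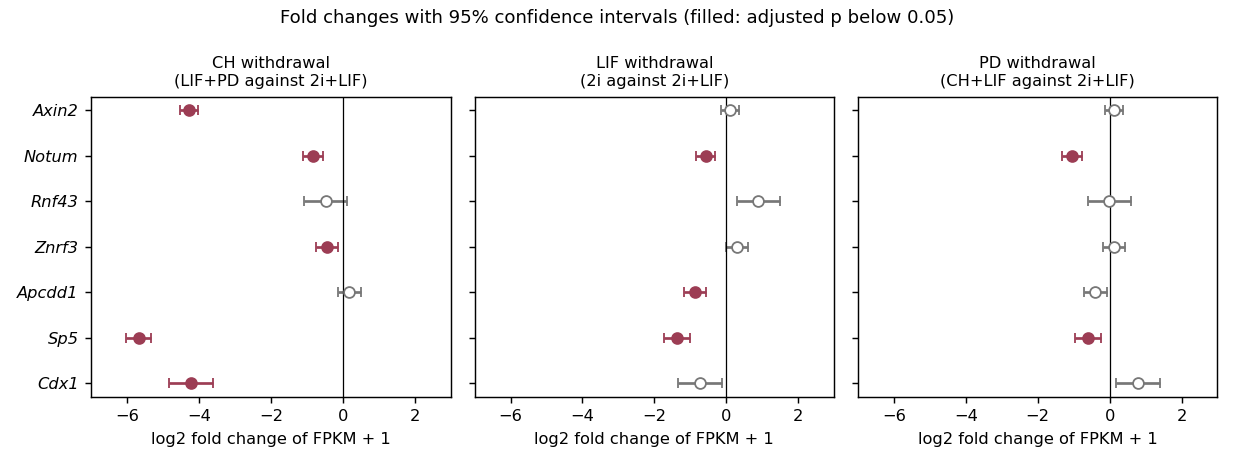
Log2 fold change of FPKM + 1 (horizontal axis) for the 7 genes tested, in the comparisons of LIF+PD, 2i and CH+LIF with 2i+LIF. Bars are 95% confidence intervals from the limma fit and filled points have an adjusted p below 0.05. In the panel for CH removal, Axin2, Sp5 and Cdx1 lie at or below -4.23, and the lowest of the other values in the 3 panels is -1.36 (Sp5 without LIF).

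The media with 2 components were also compared with each other. LIF+PD and 2i differ in whether LIF or CH accompanies PD. Of the 7 genes, 5 were lower in LIF+PD and 1 higher, where 11.1% of all genes were lower and 14.0% higher. Axin2 was 30.2-fold lower (26.3- to 35.3-fold over pairs of cultures), Cdx1 99.6-fold (69.0- to 133-fold), Sp5 83.4-fold (52.5- to 152-fold) and Znrf3 1.91-fold (1.73- to 2.11-fold), with log2 differences of -4.40, -3.50, -4.33 and -0.76 (adjusted p = 7.33e-06, 0.000205, 1.5e-05 and 0.00596, limma). Znrf3 kept this call with each culture left out in turn. Rnf43 was also lower (log2 difference -1.37, SE 0.26, adjusted p = 0.0085), in a comparison with the group through which it passed the filter. Apcdd1 was 2.61-fold higher (1.05, SE 0.13, adjusted p = 0.0018), and Notum was not called (-0.26, 95% confidence interval -0.54 to 0.01, adjusted p = 0.142).

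LIF+PD and CH+LIF differ in whether PD or CH accompanies LIF. In LIF+PD 4 of the 7 genes were lower and 1 higher, where 12.6% of all genes were lower and 17.8% higher. Cdx1 was 289-fold lower (267- to 312-fold over pairs of cultures), Sp5 143-fold (100.3- to 239-fold) and Axin2 30.6-fold (25.9- to 37.0-fold), with log2 differences of -5.01, -5.10 and -4.42 (adjusted p = 5.01e-05, 1.88e-05 and 7.09e-06, limma). Znrf3 (log2 difference -0.57, adjusted p = 0.0157) and Apcdd1 (0.57, adjusted p = 0.0175) were called in opposite directions. Without replicate 1 or 2 of CH+LIF neither passed (0.065 and 0.0715 for Znrf3, 0.0696 and 0.0766 for Apcdd1), without replicate 2 of LIF+PD likewise (0.087 and 0.0778), and Apcdd1 also not without replicate 1 of LIF+PD (0.0789). Rescaling moved the split over all genes from 2297 higher and 1631 lower to 1846 and 1862, and quantile normalization to 2048 and 2111.

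In the comparison of CH+LIF with 2i, both with CH, 3 of the 7 genes were higher in CH+LIF (Cdx1, Sp5 and Apcdd1) and 2 lower (Rnf43 and Notum), where 10.6% of all genes were higher and 13.3% lower. Cdx1 was 2.90-fold higher (log2 difference 1.51, SE 0.26, adjusted p = 0.00728, limma), and this was the single call that held with each culture left out in turn. Sp5 was 1.72-fold higher (0.77, adjusted p = 0.0126), and was not called without replicate 1 of CH+LIF (0.0719). The calls of Apcdd1 (0.48, adjusted p = 0.0391), Notum (-0.48, adjusted p = 0.0259) and Rnf43 (-0.90, adjusted p = 0.043) were less firm. That of Apcdd1 was lost with any 1 of the 8 cultures left out (adjusted p 0.0555 to 0.152), that of Notum without replicate 1 of 2i (0.117) or replicate 1 (0.0656) or 2 (0.116) of CH+LIF, and that of Rnf43 without replicate 1 (0.198) or 2 (0.072) of CH+LIF or replicate 1 (0.0679) or 2 (0.0684) of LIF+PD. Without either 2i culture Rnf43 did not pass the filter. Axin2 differed by 0.02 (95% confidence interval -0.24 to 0.28, adjusted p = 0.913). Rescaling moved the split over all genes from 1374 higher and 1715 lower to 2055 and 1153.

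**Figure D4:**
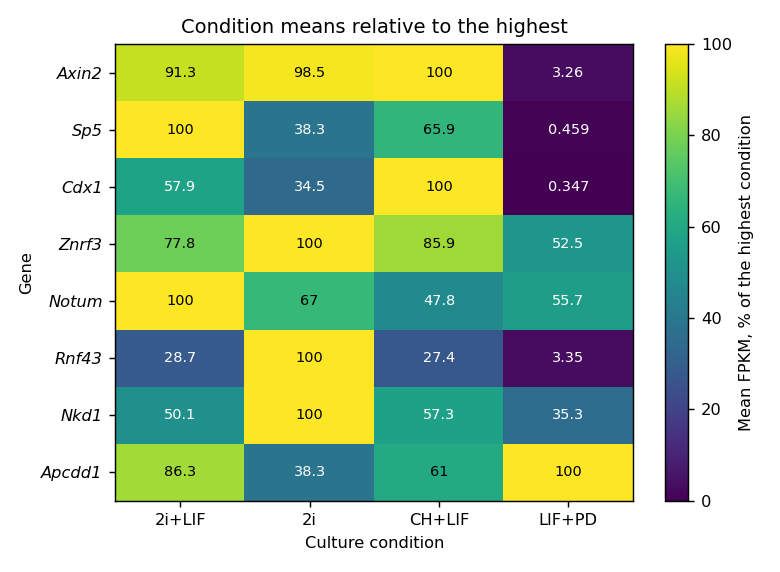
Mean FPKM of 8 of the genes in each condition (columns), as a percentage of the condition with the highest mean (colour and printed value; means of 2 cultures). Lgr5 is left out because it was listed at 0 in 3 conditions. In LIF+PD, Axin2, Sp5, Cdx1 and Rnf43 are at 3.35% or less of their highest mean, Znrf3, Notum and Nkd1 between 35.3% and 55.7%, and Apcdd1 at its highest.

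The genes thus differed in the order of their levels. The order of the means was CH+LIF, 2i, 2i+LIF and LIF+PD for Axin2, of which the first 3 were not called apart in any of the 3 tests between them, although the cultures of CH+LIF and of 2i all lay above both of 2i+LIF. For Sp5 it was 2i+LIF, CH+LIF, 2i and LIF+PD, and each neighbour differed in the main fit. For Cdx1 it was CH+LIF, 2i+LIF, 2i and LIF+PD, of which only the last neighbours were called apart, and for Notum 2i+LIF, 2i, LIF+PD and CH+LIF, of which 2i and LIF+PD were not called apart, nor LIF+PD and CH+LIF. Apcdd1 ran from LIF+PD through 2i+LIF and CH+LIF to 2i, and of these neighbours only CH+LIF and 2i were called apart. Znrf3 ran from 2i through CH+LIF and 2i+LIF to LIF+PD, of which only the last pair was called apart, and no neighbours were for Rnf43 (2i, 2i+LIF, CH+LIF and LIF+PD). Across the 8 cultures, as a description in which replicates of a condition lie close together, Pearson's r of log2(FPKM + 1) was 0.97 between Axin2 and Sp5, 0.95 between Axin2 and Cdx1 and 0.90 between Axin2 and Znrf3. It was 0.29 between Axin2 and Notum, and -0.91 between Rnf43 and Apcdd1.

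Other genes of the pathway were examined in named lists. Of 14 other Wnt targets, 12 were tested, and 5 were lower and 2 higher without CH, with a median log2 fold change of -0.26. Over all genes tested, 10.4% were lower and 14.8% higher without CH. The caudal-type homeobox gene Cdx2 measured 10.2 and 7.91 FPKM in 2i+LIF and 0.0433 and 0.096 in LIF+PD (log2 difference -3.23, adjusted p = 0.000336, limma). It was also low in CH+LIF, at 1.90 and 0.733 (-2.16, adjusted p = 0.00193), the medium in which its paralogue Cdx1 was highest. T (Brachyury), the T-box factor of the primitive streak, measured 4.86 and 3.64 FPKM in 2i+LIF, 15.4 and 8.24 in 2i, 36.3 and 18.5 in CH+LIF, and 0.161 and 0.210 in LIF+PD. Its LIF+PD values were the lowest (-2.14, adjusted p = 0.00613) and its CH+LIF values the highest (2.37 against 2i+LIF, adjusted p = 0.00468), an order shared with Cdx1 at its extremes. The receptor genes Ephb3 (-1.13) and Tnfrsf19 (-1.09) were lower without CH, as was Tcf7 (-0.53), named after its value was seen. Ascl2 (1.21) and Ccnd1 (0.45), which encodes cyclin D1, were higher.

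Lef1 and Myc, the 2 most expressed of the targets not called without CH, were called in other comparisons. Lef1, a partner of β-catenin on DNA, measured 6.02 and 5.46 FPKM in 2i+LIF, 37.1 and 36.4 in 2i, 31.3 and 17.9 in CH+LIF, and 4.52 and 4.97 in LIF+PD. It was called higher without LIF (log2 difference 2.49, adjusted p = 0.000712, limma) and without PD (1.88, adjusted p = 0.00219), and its difference without CH was -0.23 (adjusted p = 0.498). Without LIF 6 of the 12 targets were higher and 1 lower, where 9.77% of all genes were higher and 8.86% lower. Without PD 4 were higher and 3 lower, where 12.2% of all genes were higher and 13.3% lower. Myc was higher without PD (2.59, adjusted p = 0.00235).

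Of 8 genes listed as other feedback inhibitors 4 were tested, and Dkk1, Dkk4, Nkd2 and Wif1 stayed at or below 0.622 FPKM. The list is a loose one, in which not every gene is a feedback gene. Without CH 1 of the 4 was higher and 0 lower, where 14.8% of all genes were higher and 10.4% lower. The higher one was the corepressor gene Tle3 (0.75, adjusted p = 0.0279, limma). The secreted antagonist Sfrp1 measured 57.0 and 58.5 FPKM in 2i+LIF, 18.7 and 16.3 in 2i, 19.0 and 23.0 in CH+LIF, and 46.9 and 38.6 in LIF+PD. It was lower without LIF (-1.67, adjusted p = 0.000429) and without PD (-1.42, adjusted p = 0.00101), and its difference without CH (-0.43) was not called (adjusted p = 0.0552).

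Of 11 genes of the destruction complex and its effectors 10 were tested, and 1 was higher and 0 lower without CH. Among all genes 14.8% were higher and 10.4% lower. Ctnnb1, which encodes β-catenin, lay between 315.8 and 425 FPKM in all cultures and was not called in the 3 withdrawals. The gene called was Tcf7l1, a repressor of the Tcf family, at 147 and 141 FPKM in 2i+LIF, 43.5 and 53.6 in CH+LIF, and 212 and 204 in LIF+PD. It was higher without CH (0.53, adjusted p = 0.012, limma) and lower without PD (-1.55, adjusted p = 0.000364). Of 5 genes that Tcf7l1 is known to repress in ESCs, 4 were lower without CH, namely Tfcp2l1 (-1.16), Klf2 (-0.60), Nr0b1 (-0.50) and Esrrb (-0.42), and Nanog (-0.04) was not called. Without LIF 3 of the 5 were lower and without PD 2, where 8.86% and 13.3% of all genes were lower.

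Of 10 receptors and R-spondins 6 were tested, and 3 were higher and 1 lower without CH. Among all genes 14.8% were higher and 10.4% lower. The R-spondin gene Rspo1 was higher (1.72, adjusted p = 0.0129, limma) at 6.02 and 3.33 FPKM in LIF+PD. Lgr4, a relative of Lgr5, was higher (0.94, adjusted p = 0.0102) at 22.9 and 16.2 FPKM, against 10.6 and 8.61 in 2i+LIF. Of the coreceptors, Lrp6 was higher (0.53, adjusted p = 0.0312) and Lrp5 lower (-0.73, adjusted p = 0.00484).

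**Figure D5:**
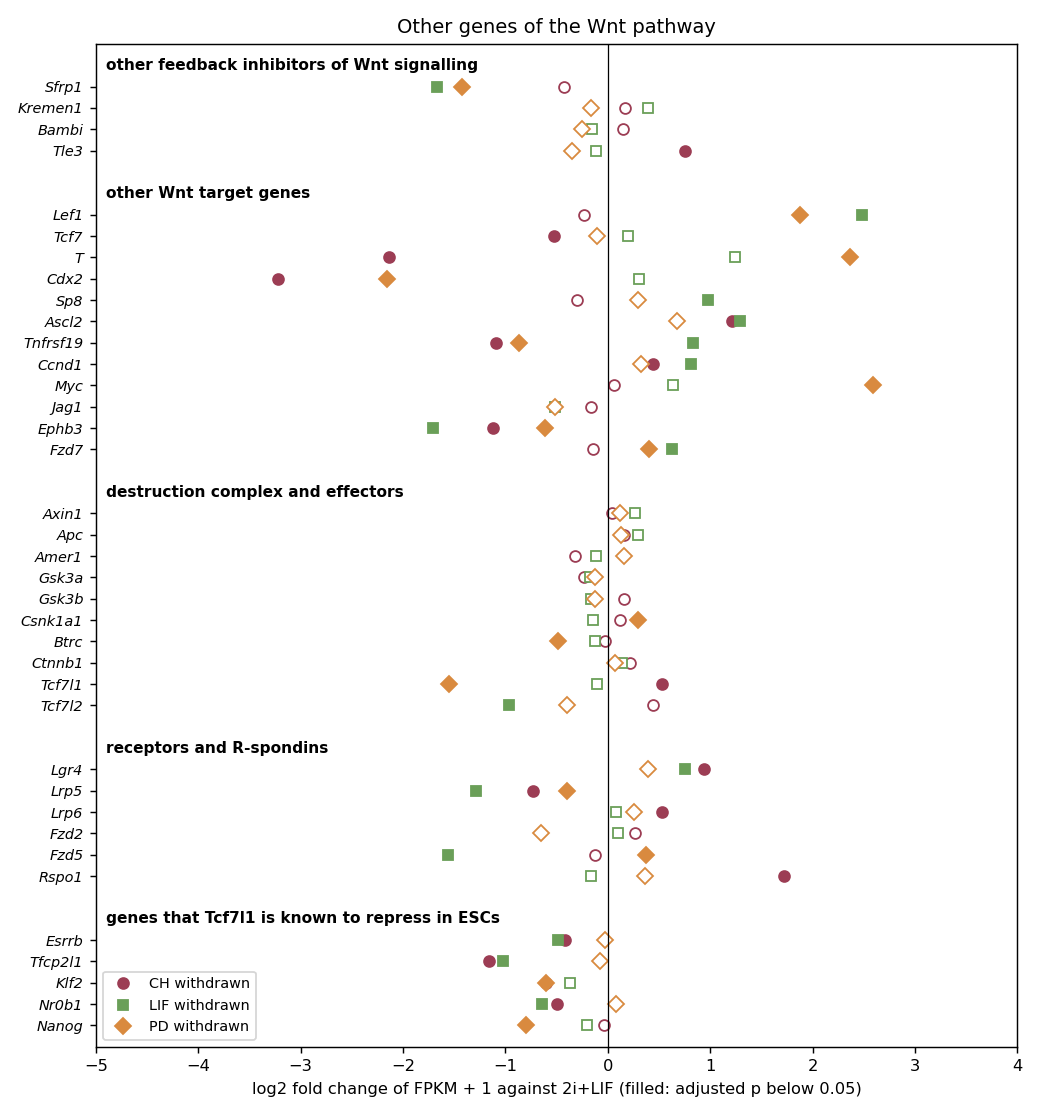
Log2 fold change of FPKM + 1 against 2i+LIF (horizontal axis) of the tested genes of 5 pathway lists. Circles stand for CH withdrawn, squares for LIF withdrawn and diamonds for PD withdrawn, and filled symbols have an adjusted p below 0.05. Cdx2 (-3.23) is the lowest value without CH, and Lef1, T and Myc are above 1.8 without PD.

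The genes with the profile most like that of Axin2 over the 8 cultures were sought among 1989 tested genes other than the 9, with a mean of at least 5 FPKM in 1 condition and condition means that spanned at least 1 on the log2 scale. By Pearson's r of log2(FPKM + 1) they were Sh3gl2 (0.989), Fut10 (0.987), Ror2 (0.987), Pglyrp1 (0.986) and Asns (0.986). Ror2, which encodes a receptor tyrosine kinase for Wnt5a, measured 14.3 and 15.1 FPKM in 2i+LIF, 13.4 and 11.6 in 2i, 10.8 and 10.5 in CH+LIF, and 1.01 and 1.15 in LIF+PD. Asns, which encodes asparagine synthetase, was at 416 to 463 FPKM on average in the 3 media with CH and at 201 in LIF+PD. With the mean profile of the 7 tested genes, the genes most alike included Acox3 (0.994), Lhfpl2 (0.989), Chfr (0.988) and again Ror2 (0.987). All 8 genes named here had their lowest mean in LIF+PD, which largely follows from their choice by likeness to profiles that are low there. The 8 cultures hold only 4 conditions.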

How the data were processed

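RNA of 8 cultures, 2 per condition, was sequenced from a single end. Per the labels, libraries were made from polyA RNA, whereas the methods describe rRNA-depleted RNA. The authors aligned reads with tophat2 to mm10 with Ensembl 75 annotation, kept uniquely mapped reads and deposited a table of FPKM for every culture, with bounds around each value whose confidence level is not given in the sources used here. The submitters' processing notes also name Cufflinks and Cuffdiff. The methods' read counts were not used here. FPKM depends on the transcript lengths and library totals that the authors used, and carries no read number, so that no counting error is given.

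Entries that repeated an identifier (22) were summed. Values were transformed as log2(FPKM + 1), and genes that reached 1 FPKM in 2 or more cultures were fitted with limma 3.58.1 (R 4.3.3) with a mean-variance trend, with all 4 conditions in a single fit and no block for replicate number, and with Benjamini-Hochberg adjustment over all genes fitted. The limma fit was tested on simulated data. Python 3.11.15, pandas 2.3.3, numpy 2.4.6 and matplotlib 3.10.9 were used otherwise. Start positions were raised by 1 from the deposited ones, since 77.8% then equalled the GENCODE M21 start, against 1.09% as deposited. Promoter sequences are from RefSeq (GRCm38.p6). The 9 genes, the pathway and marker lists and the tests were chosen with earlier results of these data known. From each pathway list the text names the genes past the threshold without CH, at most 4 in each direction by size, and up to 2 others with the highest mean FPKM. Tcf7 was named beyond this limit, after its value was seen. A gene among those with the most similar profiles is not reported here. Alternatives were pseudocounts of 0.1 and 5, other filters, 3 rescalings, a fit of the compared groups alone, a fit without the trend, a replicate block, and leaving out each culture.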

Additional observations from a re-analysis of the deposited data

How the results depend on the processing

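Of 738 fold changes of the 7 tested genes recomputed under the alternatives, 663 kept their direction and their side of the threshold, 59 were no longer past it, 10 were newly past it and 6 changed sign. Axin2, Sp5 and Cdx1 were called lower in LIF+PD than in each other medium in all 18 alternatives, with log2 differences from 2i+LIF of -4.76 to -3.19, -7.42 to -3.74 and -6.50 to -2.29. Apcdd1 and Sp5 without LIF and Notum without CH or PD were also called in all 18, and Znrf3 without CH in 5 of 18. The sign changes concerned values near 0. Rnf43 without PD moved to 0.0653 with rescaling to the same sum, 0.0403 with a pseudocount of 0.1, 0.0092 with quantile normalization, and, with single cultures left out, ranged from -0.285 to 0.2675 (above 0 without replicate 2 of 2i+LIF or replicate 1 of CH+LIF). Axin2 in CH+LIF against 2i ranged from -0.0291 (without replicate 1 of CH+LIF) to 0.0701 with single cultures left out, and to 0.158 with rescaling. Fitting only the 4 cultures compared gave 1500 calls over all genes without LIF (2408 in the full fit), and 1808 in CH+LIF against 2i (3089). The number of the 7 genes called in CH+LIF against 2i fell from 5 to 3 with a filter of 5 FPKM, to 3 with rescaling, to 2 with the 4 cultures alone and to 3 with a pseudocount of 0.1, which also left 1 of 2 without PD. The causes were not tested.

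With each culture left out in turn, the calls over all genes ranged from 1661 to 3372 without CH (3263 with all cultures), 1152 to 2150 without LIF, 1506 to 3363 without PD, 1873 to 2987 in LIF+PD against 2i, 2262 to 4026 in LIF+PD against CH+LIF and 1478 to 2726 in CH+LIF against 2i. The number of the 7 genes called ranged from 1 to 3 without PD, 3 to 5 in LIF+PD against CH+LIF and 1 to 4 in CH+LIF against 2i. A condition left with 1 culture was assumed to vary like the others. Whether replicate numbers pair the cultures is not stated. The deviations of same-numbered cultures were only weakly related between conditions (r -0.03 to 0.09). With the replicate block, 3470, 2547 and 3519 genes were called without CH, LIF and PD (3263, 2408 and 3286 without it), and 3467, 4105 and 3338 in the comparisons of LIF+PD with 2i, of LIF+PD with CH+LIF and of CH+LIF with 2i. Among the 7 genes the block took away the calls of Znrf3 without CH (adjusted p = 0.0514, limma) and of Rnf43 in CH+LIF against 2i (0.0534), added Cdx1 without PD (0.0361) and changed no other call.

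There were 2 cultures per condition and 4 residual degrees of freedom, and without read numbers no value has a counting error. Fold changes that involve values below 1 FPKM (Lgr5, most of Nkd1 and Rnf43, and Sp5 and Cdx1 in LIF+PD) depend on the pseudocount. Without a filter Nkd1 was called only in LIF+PD against 2i (log2 difference -0.55, adjusted p = 0.0266), and its value without LIF was 0.40 (0.0832).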
